A study of Drosophila melanogaster with 3 samples.

Results

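The genes described here are named for the proteins of the large subunit of the cytosolic ribosome of Drosophila melanogaster. They were taken as every protein-coding gene whose symbol starts with RpL, which gave 54 of 13945 such genes on the main chromosome arms. Symbols that start with mRpL, which name the mitochondrial counterparts, were not members. The choice by symbol takes in genes with names ending in -like, whose products may not be part of the mature subunit. Binding of SREBP (HLH106), a membrane-tethered transcription factor known in flies for lipid synthesis, was assayed by ChIP-seq, in which DNA bound by a protein is precipitated with it and sequenced. The material was whole larvae at the wandering stage at the end of the third instar, of both sexes together and of unknown age, so a peak cannot be assigned to a tissue. All 3 samples were biological replicates of 1 group, a transgenic line that stably expresses SREBP with GFP at its N terminus, precipitated with an antibody to GFP although the antibody field names HLH106. The group has no untagged or untreated counterpart among these samples, so values are described and no groups are compared.

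The large subunit holds the catalytic centre that joins amino acids, the tunnel through which the new chain leaves, and a flexible stalk that recruits elongation factors. Its proteins are needed in fixed proportion and in every growing cell, and their genes are among the most strongly transcribed in a larva. Many ribosomal protein genes of flies start transcription at a run of pyrimidines, the TCT initiator, in place of the usual initiator. Promoters of such genes often carry the DNA replication-related element (DRE) or the site of the zinc finger protein M1BP. Several introns of ribosomal protein genes hold small nucleolar RNAs, which guide the modification of ribosomal RNA.

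The start sites of the best-ranked genes and of the paralogs show where CTTT, the letters of the initiator core of this family, lies and where paralogs differ. Each line gives 30 bases of the dm6 assembly on the gene's own strand, 5′ to 3′, in which base 21 is the annotated transcription start site (TSS). Capitals mark CTTT, the letters of the core of the TCT initiator, where it starts within 5 bp of the TSS, or a site from the motif list. A marked CTTT is a match of letters and is not shown to be the initiator in use.
RpL34b: gtcgtgcgcgaacagggttgccacCTTTct
RpL32: ttcttttcgcttctggtttccggcaaggta
RpL14: ccgagctgtcaaaaaagttCTTTccttctc
RpL7: cggccAGTGTGACCgtttggccgatggcgc
RpL23A: ttgacaactgcccctcagttttcCTTTtca
RpL7-like: ttatcgctccgcgcccacctctatcCTTTt
RpL24: ttttcgtttccacttccgttttCTTTtctt
RpL24-like: tcgcactgctgactgccgatacattttcat
RpL34a: aatttttcttccagctctagcttctcttct
RpL10Ab: cacctctaaaaaccgattttcacttccttt
RpL10Aa: aacattacaatacatttcaaattttgtgct
RpL22: tcttgccgtcgcttccgccttctgttcttt
RpL37-1: ctcaccaccagcgtctcttcttcttccctt
RpLP0: ttaccaccagaagcactgttagttaacaga
The capitals in RpL7 mark the M1BP site GGTCACACT on the opposite strand. These windows lie at chr3R:9401217-9401246 (RpL34b, minus strand), chr3R:30046131-30046160 (RpL32, minus), chr3L:8600986-8601015 (RpL14, plus), chr2L:10200984-10201013 (RpL7, plus) and chr3L:1668645-1668674 (RpL23A, minus). Those of the paralogs lie at chr2L:12056328-12056357 (RpL7-like, plus), chr2L:13395083-13395112 (RpL24, minus), chr3R:11431573-11431602 (RpL24-like, minus), chr3R:26059258-26059287 (RpL34a, minus), chr3L:11822831-11822860 (RpL10Ab, plus), chr3R:15037346-15037375 (RpL10Aa, plus), chrX:765121-765150 (RpL22, minus), chrX:15139358-15139387 (RpL37-1, minus) and chr3L:22075847-22075876 (RpLP0, plus). CTTT was marked in RpL24 and not in RpL24-like, and in RpL34b and not in RpL34a, but also in RpL7-like and not in RpL7. RpL37-2 had it within 5 bp and RpL37-1 did not, and neither member had it there in the RpL10A, RpL22 and RpLP0 pairs. The windows of RpL10Ab and RpL22 do end in CTTT, which starts 6 bp downstream of the TSS, just outside the limit. These contrasts between paralogs therefore depend on the limit.

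The peak lists gave 30000 peaks for each replicate and 30000 for the replicates pooled, and the optimal set, which the authors chose by agreement between replicates, held the 7993 peaks of highest signal in the pooled list. Library depth is unknown, because no reads were part of these lists. Bound here means that a peak summit lay within 500 bp of any TSS of the gene, and a gene's values are those of its strongest such peak, ranked within a list by the peak caller's signal value. One peak can therefore count for several genes. Replicate 2 stood apart in summit position. Over the 42 bound RpL genes with a peak in every replicate, its summits lay a median 24.2 bp further downstream than the mean of the other two, against 3.75 bp over all 3730 such genes. The same shift was 37.5 bp at 27 RpS genes and 14.2 bp at 22 mRpL genes. Replicate 1 differed from replicate 3 by a median of -2 bp at the RpL genes.

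Most large-subunit genes carried a peak at the start site. In the optimal set 45 of the 54 were bound, or 83.3% (Wilson 95% interval 71.3 to 91.0%), against 28.7% of all protein-coding genes. In the pooled list 48 of 54 were bound, against 47.8% of all genes. Among the 7993 strongest peaks of each replicate, 46 were bound in replicate 1, where 28.8% of all genes were. The counts were 44 in replicate 2 against 28.5%, and 46 in replicate 3 against 29.4%. A peak in all 3 of these replicate lists was found for 40 RpL genes (74.1%), against 22.3% of all genes, and in all 3 full lists for 45, against 36.0%. Intervals cover counting error only, and genes that share a peak are not independent.

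Gene structure and neighbours change the background. Of the 29 RpL genes with a single TSS, 22 were bound (75.9%), against 22.7% of all genes with 1 TSS. Of the 32 with no TSS of another gene within 500 bp of their own, 26 were bound (81.2%), against 18.8%. When a peak counted for no gene but the one with the closest TSS, 41 RpL genes were bound, against 21.7% of all genes. The 4 that lost their peak were RpL13, RpL34b, RpL41 and RpLP0-like. With the stronger 3996 optimal peaks alone, 33 RpL genes were bound (61.1%), against 17.6%.

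**Figure D1:**
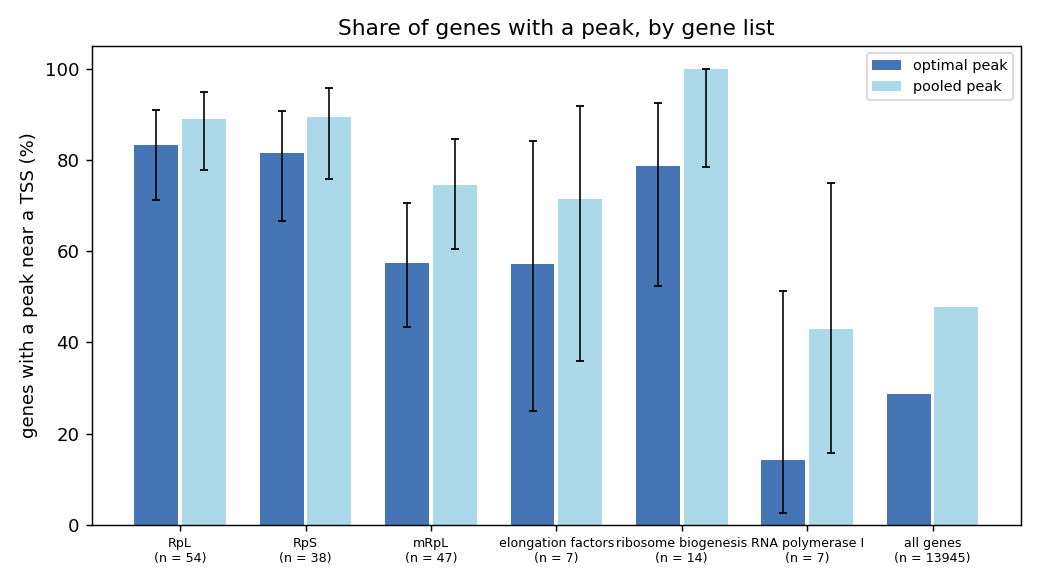
Share of genes with a peak summit within 500 bp of a TSS, in percent, for the optimal set (dark) and the pooled list (light). Error bars are Wilson 95% intervals, which cover counting error only; the RpL bars stand at 83.3 and 88.9%, and those of all 13945 genes at 28.7 and 47.8%.

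Other translation genes gave a mixed picture. Of the 38 RpS genes, which encode the small subunit, 31 were bound in the optimal set (81.6%). RpS27 had the best rank among them, 311, while RpS2 and RpS13 had no optimal peak. The share over all genes, 28.7%, is the background for each of these lists. Of the 47 mRpL genes 27 were bound (57.4%). By nearest TSS 11 were (23.4%), near the 21.7% of all genes, and 23 of the 27 peaks also reached another gene, against 56.0% of all bound genes. The elongation factor list had 4 of 7 bound, with eEF1gamma at rank 938, and the ribosome biogenesis list 11 of 14, with eIF6, which keeps the subunits apart, at rank 32. The last list was drawn up around RNA polymerase I, which transcribes ribosomal RNA, and is not limited to its subunits. Of its 7 genes, TAF1B was bound in the optimal set (14.3%). In the pooled list 3 of the 7 were bound (42.9%), against 47.8% of all genes.

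The peaks of RpL genes were of middling strength. Their median rank in the optimal set was 2899, against 3161 over all 4009 bound genes. Over the replicates' full lists the median rank of the bound RpL genes was 2760 ± 115 (SD, n = 3), and that of all bound genes 3141 ± 309. Within the 1000 strongest peaks lay 6 of the 45 (13.3%), against 18.1% of all bound genes, and beyond rank 6000 lay 3 (6.67%), against 17.6%. Both RpL shares rest on few genes.

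**Figure D2:**
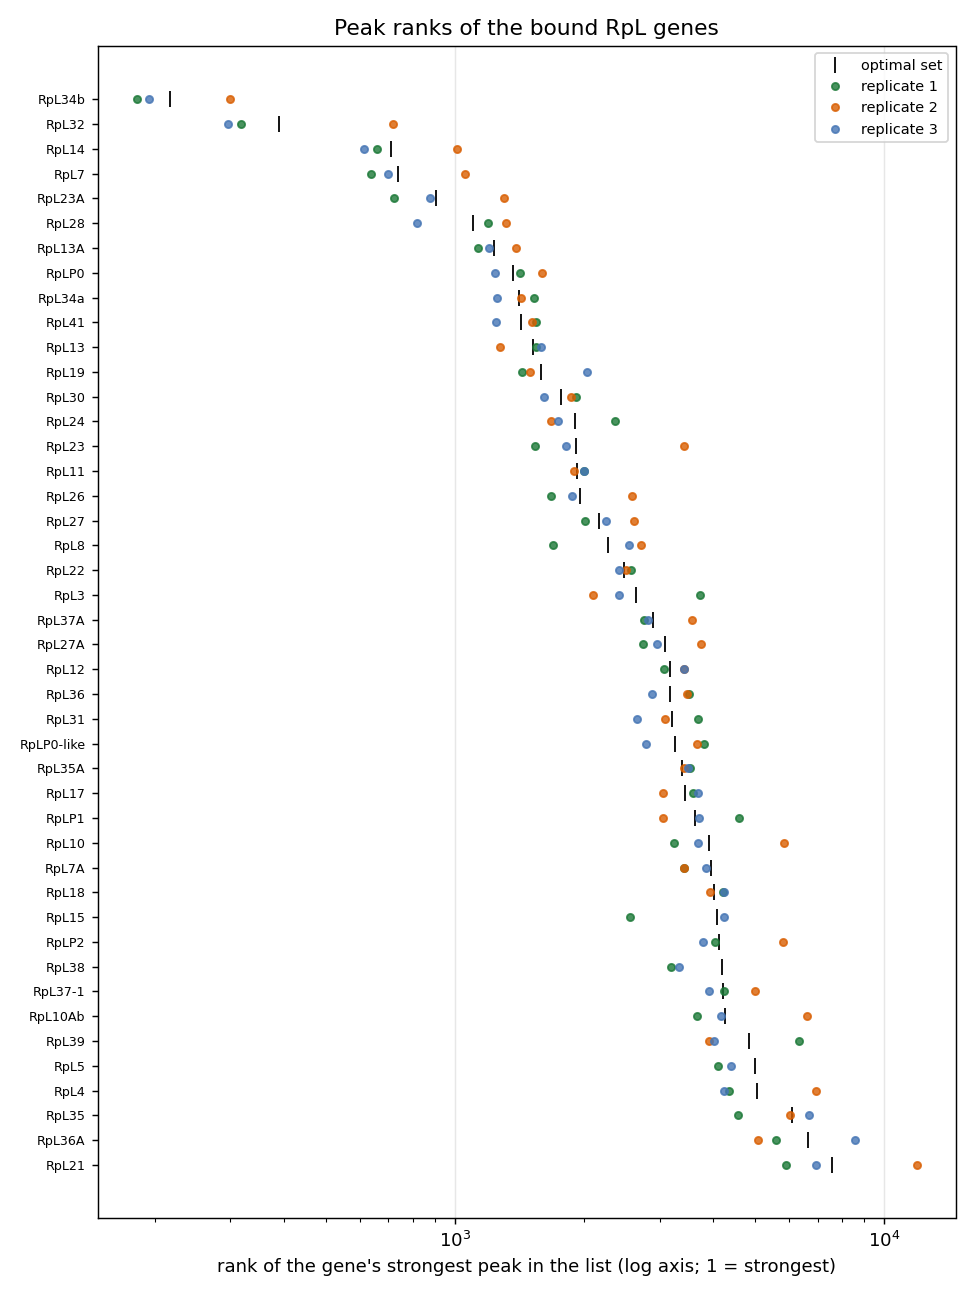
Rank of each bound RpL gene's strongest peak in the optimal set (bars) and in each replicate's full list (points), on a log axis where 1 is strongest. RpL34b, RpL32 and RpL14 lead with optimal ranks of 217, 390 and 710, and a missing point is a replicate with no peak within 500 bp; 1 bound gene is not shown.

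RpL34b (FBgn0037686, chr3R:9400237-9401226, minus strand) had the strongest peak, at chr3R:9401121-9401601. Replicates 1, 2 and 3 ranked it 182, 299 and 194 (225 ± 64.4, SD, n = 3), and its summit lay 137 bp upstream of the TSS. That peak also reached CG8132, whose TSS is nearer to the summit. RpL32 (FBgn0002626, chr3R:30045229-30046161, minus strand), a common reference gene for RNA measurements, ranked 390, with replicate ranks of 318, 718 and 297 and a peak shared with CG7943. Replicate 2 gave the weakest rank for both.

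RpL14 (FBgn0017579, chr3L:8601006-8602392, plus strand) ranked 710, and 658, 1010 and 613 in the replicates. Its summits were the tightest of the leading genes, at -56, -60 and -55 bp, and its peak was shared with Nelf-E, a subunit of the factor that pauses RNA polymerase II. RpL7 (FBgn0005593, chr2L:10201004-10202321, plus strand) ranked 739 with its summit 40 bp downstream of the TSS and shared its peak with Ripalpha. RpL23A (FBgn0026372, chr3L:1666288-1668654, minus strand), at the rim of the exit tunnel, ranked 904 with its summit at -82 bp, and no other gene's TSS was in reach. It was the best-ranked of the 22 bound RpL genes whose peak reached them alone.

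Further strong peaks were those of RpL28 at 1105 (shared with eIF1, which helps select the start codon), RpL13A at 1234 (shared with Dph4 and Spec2), RpLP0 at 1370 (shared with CG7130) and RpL34a at 1414 (shared with Trmt61). Of the RpL genes named so far by rank, RpL23A alone shared its peak with no gene. Over all bound RpL genes, 23 of 45 peaks reached another gene (51.1%), against 56.0% of all bound genes. The median rank was 1591 for the 23 and 3276 for the 22 others. The same split of ranks was not computed over all bound genes, so it is not shown to be particular to RpL genes. RpL13 shared its peak, rank 1520, with Dref, the gene of the factor that binds DRE.

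By role, counts are again to be read against 28.7% of all genes. The 30 RpL genes placed in no role held 22 bound genes, and thus 8 of the 9 without an optimal peak. The role lists were written with earlier results of these data known. They hold RpL22, RpL24 and RpLP0 but leave RpL22-like, RpL24-like and RpLP0-like in no role, the first 2 of these unbound. Counts by role therefore depend on the choice of lists. All 4 stalk genes were bound, at a median rank of 3398: RpLP0 and RpL12 at the base, and the acidic RpLP1 and RpLP2. Both genes of the 5S rRNA particle were bound, RpL11 at rank 1928 and RpL5 at 5016. The 3 genes near the peptidyl transferase centre, RpL3, RpL8 and RpL10, ranked 2644, 2279 and 3913. All 10 genes of the exit tunnel and its rim were bound (median rank 3316), as were the 4 genes at the bridges to the small subunit (median rank 1838). Of the bridge genes, RpL41 lost its peak by nearest TSS, and the RpL23 peak, with its summit at -320 bp, also reached CG13531. The peaks of RpL24 and RpL30 reached no other gene. RpL40, made as a fusion with ubiquitin, had no optimal peak.

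Summits at RpL genes lay close to the start site. The median offset in the optimal set was -57 bp (quartiles -89 and -28), against -133 bp (quartiles -217 and -65) over all bound genes. Summits within 100 bp of a TSS made up 36 of 45 (80.0%), against 31.7%. Upstream summits were as common, at 86.7% against 87.6%. The RpS median was -31 bp and the mRpL median -132 bp. For peaks that reached 1 gene, the medians were -40 bp for RpL and -127 bp for all genes.

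The replicates kept this order of the medians. The median RpL offset in the full lists was -57, -23 and -52 bp in replicates 1, 2 and 3 (-44.0 ± 18.4 bp, SD, n = 3), and that of all genes -120, -97 and -113 bp (-110 ± 11.8 bp). In each replicate the RpL median was the nearer to the TSS. In replicate 2, 68.8% of RpL summits were upstream, against 91.8 and 90.0% in replicates 1 and 3. Over all genes in the same lists the shares were 77.9, 74.2 and 78.0% in replicates 1, 2 and 3. The RpL share was thus below that of all genes in replicate 2 and above it in replicates 1 and 3. The SD of a summit over replicates had a median of 24.1 bp at RpL genes and 20.1 bp over all genes.

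**Figure D3:**
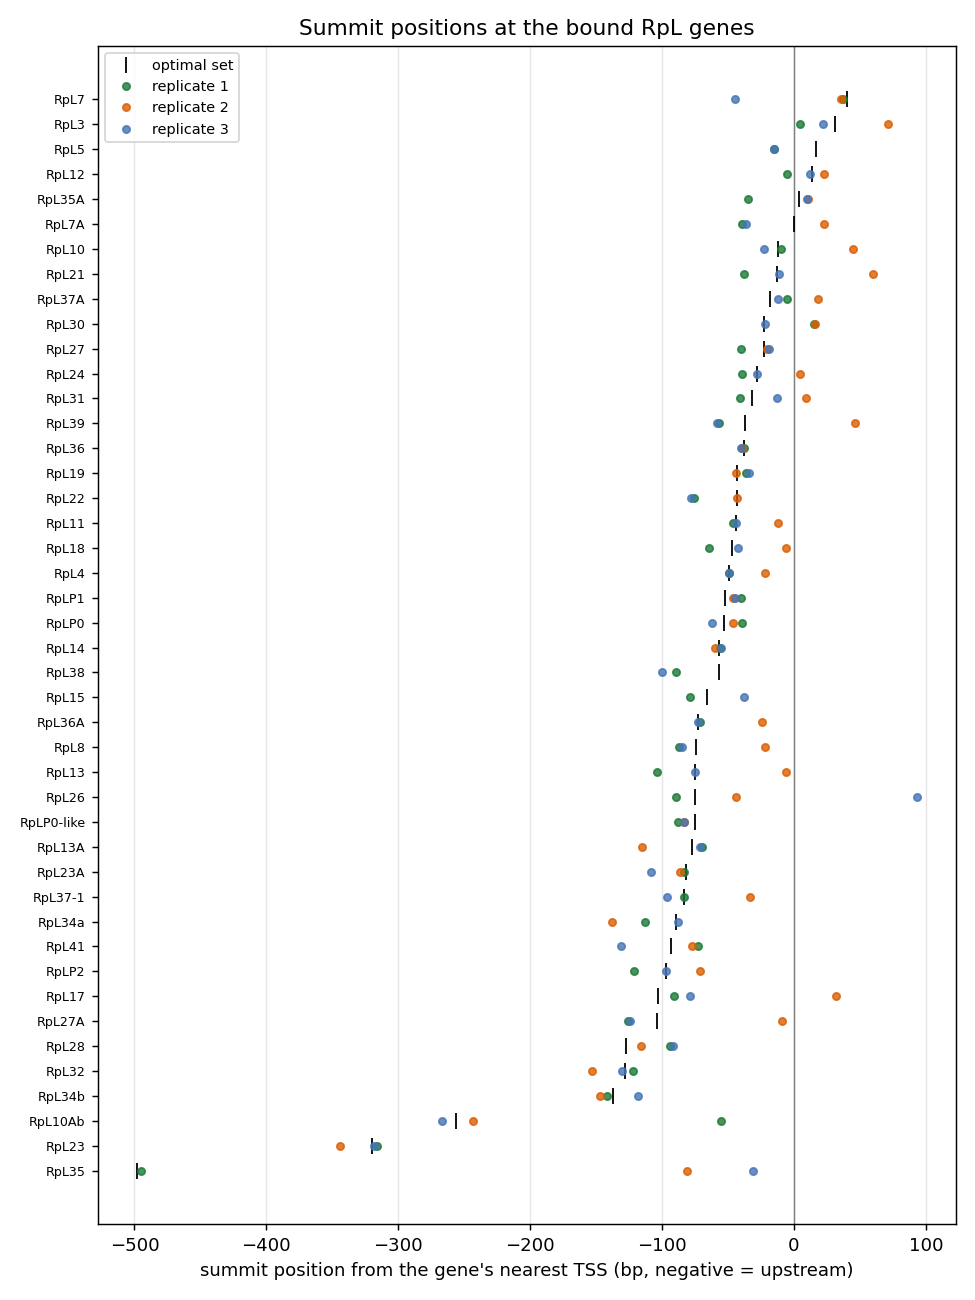
Summit position of the strongest peak of each bound RpL gene relative to its nearest TSS, in bp, for the optimal set (bars) and each replicate (points). Most bars lie between -137 and 40 bp, and 3 genes lie beyond, RpL10Ab, RpL23 and RpL35; a point may refer to another TSS or another peak of the same gene than the bar, and 1 bound gene is not shown.

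At 3 genes the strongest peak lay further off. Each of these peaks also reached other genes: Rab18 for RpL35, CG13531 for RpL23, and CG11597 and CG5946 for RpL10Ab. RpL35 was counted through a summit at -498 bp, just inside the limit, with another optimal summit 34 bp from a TSS. RpL23 had its strongest summit at -320 bp and another within 120 bp of a TSS, and RpL10Ab at -256 bp with another within 55 bp. All 45 genes were therefore still bound with a limit of 250 bp. RpL5, RpL15 and RpL38 were bound in the optimal set and in replicates 1 and 3 but had no replicate 2 peak within 500 bp.

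The 9 RpL genes without an optimal peak were of several kinds. RpL10Aa, RpL22-like and RpL37-2 had no peak within 500 bp in any list. RpL6, RpL7-like and RpL40 had weaker pooled peaks, at ranks 8976, 8493 and 13645. RpL6 stood at ranks 20390, 7535 and 8360 in the replicates, and RpL40 at 8636, 17777 and 20601, so the replicates disagreed on both. RpL24-like had a peak in replicate 2 at rank 9027 and in replicate 3 at 6245.

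RpL9 and RpL29 differed from these. RpL9 (FBgn0015756, chr2L:11002758-11004189, minus strand) had a peak in replicate 1 at rank 3827 and in replicate 2 at 2988, 27 and 31 bp downstream of a TSS, but none within 500 bp in replicate 3 or the pooled list. RpL29 had peaks in replicates 2 and 3, at ranks 5937 and 5183, and none in the pooled list. A peak among the strongest of at least 2 replicates without any pooled peak was found at 2 of 54 RpL genes (3.7%), against 0.99% of all genes.

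Paralogs, paired by a shared symbol stem, differed in most pairs. Members with names ending in -like may not encode the same subunit protein as their partner. In 5 of the 7 pairs 1 member alone had an optimal peak. Of all protein-coding genes 28.7% had an optimal peak, so a member without one is common in itself. How often other paralog pairs split this way was not counted, so the split is not shown to be particular to RpL genes. RpL10Ab ranked 4264, by a peak that also reached CG11597 and CG5946, and RpL10Aa had no peak. RpL22 ranked 2478 (replicates 2572, 2506 and 2412), while RpL22-like had none within 500 bp, the nearest optimal summit being 1136 bp away. RpL37-1 ranked 4218 and RpL37-2 had no peak. RpL24, at a subunit bridge, ranked 1907, and RpL24-like had no pooled peak. RpL7 ranked 739, and RpL7-like had no optimal peak but stood at ranks 18088, 8672 and 8660 in the replicates.

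Both members were bound in the other pairs. RpL34b ranked 217 and RpL34a 1414, and the replicate ranks did not overlap (182 to 299 against 1254 to 1531). RpLP0 ranked 1370 and RpLP0-like, which is known as a factor of ribosome assembly in yeast, 3251. Their replicate ranks were 1242 to 1597 against 2783 to 3812. How often the replicate ranks of other bound genes fail to overlap was not counted. Neither gap is therefore shown to be particular to paralogs. By nearest TSS neither RpL34b nor RpLP0-like kept its peak, which lay nearer to CG8132 and 14-3-3zeta.

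CTTT, the letters of the initiator core, was common near the annotated start of RpL genes, mostly downstream of it. At the reference TSS itself, the one with most transcripts, it started in 0.0% of RpL genes, against 0.502% of all genes. Its share was 16.7% at 4 and at 6 bp downstream, the latter outside the 5 bp limit. Further downstream the share was 13.0% at 8 bp and 9.26% at 9 bp, against 0.631 and 0.638% of all genes. The matches were thus spread over several positions, and whether any serves as the initiator was not tested. Within 5 bp of the reference TSS, CTTT started in 27 of 54, against 5.63% of all genes, and on the other strand in 0 of 54 against 4.87%. It was present in 17 of 38 RpS genes and 1 of 47 mRpL genes. The first 15 bases were 78.0 ± 19.8% pyrimidine at RpL genes (SD over 54 genes) and 52.0 ± 13.2% over all genes. Of the 27 RpL genes with CTTT, 22 were bound, and 23 of the 27 without it. Over all genes, 30.7% of those with CTTT and 28.6% of the others were bound.

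**Figure D4:**
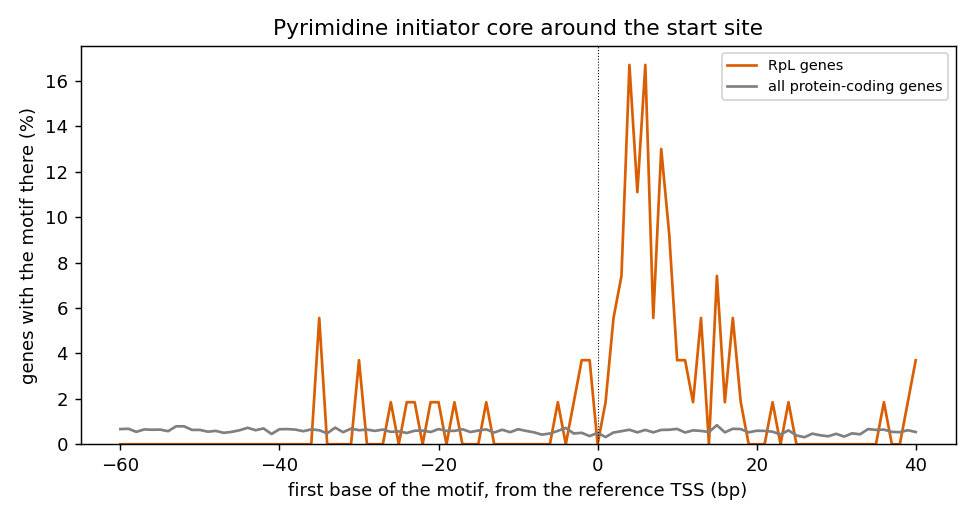
Share of genes, in percent, in which CTTT, the letters of the initiator core, starts at each position from the reference TSS, for the 54 RpL genes and all 13945 genes. The RpL share is highest, 16.7%, at 4 and at 6 bp downstream, where all genes stand at 0.638 and 0.631%. At the TSS itself it is 0.0%, against 0.502% of all genes.

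Motifs were searched on both strands from 50 bp before to 50 bp after each summit. DRE (TATCGATA) was in 6 of 45 RpL windows (13.3%), against 3.22% of the 2886 optimal summits at promoters and 1.44% of all optimal summits. The windows were those of RpL19, RpL27, RpL28, RpL37-1, RpL39 and RpL41. M1BP (GGTCACACT) was in 3 (6.67%), against 1.42 and 0.701%, and the E-box CACGTG, a sequence bound by many basic helix-loop-helix proteins, the class of SREBP, in 3 (RpL7, RpL11 and RpL24), against 0.866 and 0.576%. The extended E-box TCACGTGA, the sterol response element core TCACCCCA and the site of the GAGA factor, GAGAGAG, were in none of the 45, and in 0, 0.0693 and 1.0% of promoter summits. The TATA box, spelled TATAAA, was in 4 (8.89%), against 23.0 and 23.6%. GCCACACT was in 6 (13.3%), against 0.936 and 0.475%, but it was chosen after the promoters had been read. Its share therefore cannot be set beside those of the other motifs.

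In the whole promoter, from 250 bp before to 50 bp after the reference TSS, DRE was in 15 of 54 RpL genes (27.8%) and 9.24% of all genes, and 12 of the 15 were bound. CACGTG was in 10 (18.5%) and 4.24%, and 6 of the 10 were bound. The 4 unbound were RpL6, RpL7-like, RpL24-like and RpL29. Of all 54 RpL genes 45 were bound. The bound share of all genes that carry DRE or CACGTG was not counted, so these counts say nothing about the motifs. M1BP sites were in 6 (11.1%) and 6.07% and TATA boxes in 23 (42.6%) and 45.6%. A snoRNA gene lay within 16 of the 54 RpL genes (29.6%), against 0.602% of all genes. All 16 were bound, as were 29 of the other 38 RpL genes and 64 of all 84 such host genes (76.2%).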

How the data were processed

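The samples were 3 biological replicates of 1 group, with replicate numbers from the labels. The authors aligned reads to dm6 and deposited narrowPeak lists per replicate, for the replicates pooled, and an optimal set thresholded by irreproducible discovery rate, per the deposited notes. The replicate and pooled lists also drew on 1 further file shared by the replicates. The signal value deposited by the authors has no stated scale and was used only for ranks within a list. The aligner, peak caller, thresholds and control are not given in the sources used. Fragments were 200 to 800 bp, per the labels.

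Gene models were Ensembl release 115 (BDGP6) and sequence was dm6. Coordinates count from 1. Ranks, distances and motif counts were computed with Python 3.11.15, numpy 2.4.6, pandas 2.3.3 and scipy 1.17.1. Peak assignment was checked on simulated data: 200 of 200 planted peaks were recovered with signed offset.

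The members, lists, motifs and alternatives were chosen with earlier results of these data known. After values had been seen, 7 further looks and 2 alternatives were added: the motif GCCACACT, snoRNA hosts, pyrimidine share, genes with 1 TSS, genes with no other TSS in reach, replicate peaks without a pooled peak, and the replicate 2 shift. The alternatives left out genes near another TSS, or the lower-ranked paralogs. The latter choice uses the outcome, so the share of bound genes had to rise and is not reported. No test was run. The values of 1 bound gene are not reported here, though it is in the counts and medians. Named in full were the others of the 10 best-ranked genes, the paralogs, the unbound genes and genes sharing a named peak, and up to 3 bound and 2 unbound genes of other lists. Sequences were the 5 best-ranked genes and the paralogs, none from 2R. TAF1B was matched by its current spelling and Polr1H by an older name.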

Additional observations from a re-analysis of the deposited data

How the results depend on the processing

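The counts of RpL genes with an optimal peak (41 to 46, or 33 with the stronger peaks alone), with a pooled peak (44 to 49) and with a peak in all replicates (31 to 45) moved by less than 1.5 times under every alternative from the initial list. Leaving out 1 replicate gave 41 to 44 genes with a peak in the remaining replicates. Under an alternative added after the data had been seen, 26 genes were bound, out of the 32 with no other TSS in reach, because fewer genes were counted. The median offset was -23 bp in replicate 2, against -57 and -52 bp in the others, and -40 to -73 bp under the other choices; the cause was not tested. The median rank was 3031 within 250 bp and 3081 by nearest TSS, and 2747 and 2652 in replicates 1 and 3, against 2899; these exceed the SD of 115 between replicates. CTTT fell from 27 genes to 8 within 2 bp of the TSS, against 2.19% of all genes. That window is narrower and leaves out 4 bp downstream, where the RpL share was 16.7%. No paired analysis was possible because the samples form 1 group. The unknown depth limits every statement that a gene has no peak.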
